A study of Mus musculus with 16 samples.

Results

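The kinase gene Sgk1 was examined together with 5 genes of glucocorticoid signalling, Nr3c1, Tsc22d3, Per1, Fkbp5 and Klf9, which are 6 of the 13964 genes in the table. Sgk1 was selected on its mutant against wild-type difference in these libraries, and the others were listed as the receptor and known targets of the hormone. RNA was sequenced from laser-cut outflow valves of mouse embryos at E14.5 on a C57BL/6 background. There were 4 groups of 4 libraries: mutant aortic, wild-type aortic, mutant pulmonary and wild-type pulmonary valve. The mutants are labelled Jag1flox;Nkx2.5-Cre, so a floxed Jag1 allele is cut where Nkx2-5, a gene of cardiac progenitors and their descendants, has been active, and cells outside that lineage keep the allele. The labels do not say whether wild-type embryos carried Cre or a floxed allele, and the mutants carried the Cre as well as the loss of Jag1. Within a valve, mutant and wild-type libraries of the same number came from the same litter, over 5 litters in all, of which 3 gave both valves. Libraries of the 2 valves were prepared in separate batches, so a difference between valves and one between batches cannot be told apart.

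Glucocorticoids enter the cell and bind the glucocorticoid receptor, the product of Nr3c1, which the chaperone Hsp90 holds ready in the cytosol. The bound receptor moves to the nucleus, attaches to palindromic response elements in DNA and turns target genes on or off. Sgk1 encodes a serum- and glucocorticoid-regulated kinase that controls ion transport and cell survival, and it also responds to serum, osmotic stress and growth factors. Tsc22d3 (the leucine zipper protein GILZ), Per1 (a clock repressor), Fkbp5 (an Hsp90 co-chaperone that dampens the receptor) and Klf9 (a zinc-finger repressor) are widely used read-outs of receptor activity. The question was whether these steroid-induced genes moved with Sgk1.

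Tsc22d3 lies on chromosome X, Per1 on 11, Fkbp5 on 17 and Klf9 on 19. RefSeq (GRCm38.p6) gave 13 transcription starts for 5 of the 6 genes, with 6 for Sgk1, 3 for Tsc22d3, 2 for Per1 and 1 each for Fkbp5 and Klf9. The 250 bases upstream of each start were searched for the palindromic glucocorticoid response element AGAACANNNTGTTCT, and for its 6-base arm AGAACA, on both strands. A match to the full element contains a match to the arm on each strand. Of the 13 upstream windows, 1 held the full element, and it lies in front of the fifth Sgk1 start, 189 bases upstream. Over all 32851 upstream windows of the same length, 3 held it (0.00913%). The arm was found in 4 of the 13 windows, 3 of Sgk1 and 1 of Tsc22d3, against 16.1% of all windows. The Per1, Fkbp5 and Klf9 windows held neither, which says only that these letters are not in these 250 bases. The fifth and sixth Sgk1 windows are shown because they lie next to each other on the plus strand, at chr10:21993640-21993889 and chr10:21994416-21994665, and differ in the element. Neither window overlaps an annotated exon of these genes. Capitals mark the full element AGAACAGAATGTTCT, and the fifth window holds 1 more arm, left in lower case, 242 bases upstream. The counts below are per gene and do not tell the starts apart.
Sgk1 start 5: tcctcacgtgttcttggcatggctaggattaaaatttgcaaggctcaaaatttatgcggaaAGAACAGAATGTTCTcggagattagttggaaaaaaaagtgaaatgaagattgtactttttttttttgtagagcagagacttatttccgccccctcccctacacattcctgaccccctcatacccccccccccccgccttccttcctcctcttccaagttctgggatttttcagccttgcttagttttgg
Sgk1 start 6: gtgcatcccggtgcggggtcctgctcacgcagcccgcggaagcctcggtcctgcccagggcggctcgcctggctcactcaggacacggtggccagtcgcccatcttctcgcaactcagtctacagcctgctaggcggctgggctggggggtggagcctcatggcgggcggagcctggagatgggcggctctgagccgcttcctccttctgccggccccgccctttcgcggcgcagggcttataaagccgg

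Values are the deposited normalised counts, which are reads divided by 1 factor for each library, and 4.56 to 8.68 M reads per library lay behind them. Replicates are separate libraries, which the labels tie to litters and not to embryos, so p-values measure the spread between these libraries. Jag1, the gene cut in the mutants, was 9.90, 11.4, 5.93 and 10.2 in mutant aortic libraries 1 to 4, against 20.2, 54.7, 39.7 and 18.8 in wild-type aortic libraries. It was 12.4, 4.70, 3.78 and 1.85 in mutant pulmonary libraries, against 13.6, 19.2, 25.7 and 15.4 in wild-type pulmonary libraries, so every mutant library was below every wild-type library of its valve. All 10 valve mesenchyme markers had values, and Tbx20, a transcription factor of valve cushions, ranged from 98.0 to 1744. The libraries differed in skeletal muscle RNA. In 6 of them (library 4 of each mutant group and libraries 2 and 4 of each wild-type group) 17 skeletal muscle markers had a mean log2 level of at most 1.91, and in the other 10 of at least 4.56. The summed level of these markers was 23.6 to 92.1 in the 6 and 919 to 2909 in the 10. Among these markers, Myog, Myf5 and Mymk were each at 0 in 5 of the 6 and in none of the 10. Myod1 was at 0 in 3 of the 6, and Mylpf, Myh8, Tnnc2, Tnni1 and Cav3 were at 0 in no library.

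Sgk1 transcript was higher in mutants than in wild type in both valves. The gene (ENSMUSG00000019970) is protein-coding and lies on chromosome 10 from 21882184 to 21999903 on the plus strand of GRCm38. In the aortic valve it was 23.5, 27.4, 19.0 and 26.3 in mutant libraries 1 to 4, against 15.6, 15.7, 12.0 and 10.5 in wild-type libraries 1 to 4. Every mutant aortic library was above every wild-type aortic one. In the pulmonary valve it was 21.6, 18.9, 25.6 and 21.2 in mutants, against 19.4, 6.81, 10.4 and 16.4 in wild type. Here the groups overlapped, because mutant library 2 (18.9) was below wild-type library 1 (19.4). The mutant of each of the 8 litter pairs had the higher value, by log2 0.15 in pulmonary pair 1 up to log2 1.35 in pulmonary pair 2. Pair 2 of each valve joins libraries of unlike skeletal muscle RNA. The mean log2 level of the muscle markers was 5.13 in the mutant against 0.90 in wild type (pulmonary) and 4.89 against 1.91 (aortic). The mutant means were 24.1 ± 3.73 against 13.5 ± 2.60 in wild type in the aortic valve, and 21.9 ± 2.78 against 13.3 ± 5.71 in the pulmonary valve (SD, n = 4 each). These values chose the gene, so they are given as a description with no test.

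The Sgk1 difference on the log2(value + 1) scale, which understates changes of low genes, was 0.80 (SE 0.30) in the aortic and 0.77 (SE 0.30) in the pulmonary valve. The pulmonary difference minus the aortic one was -0.03, with a 95% interval from -0.93 to 0.87, so the design leaves room for a sizeable difference between valves in either direction. Averaged over both valves it was 0.78 (SE 0.21). Recovered reads for Sgk1 were 141 to 190 in mutant and 45 to 134 in wild-type libraries. Counting error alone gave the lowest library, wild-type pulmonary 2, an exact 95% Poisson interval from 5.07 to 8.96, and the highest, mutant aortic 2, one from 23.5 to 31.8. Such intervals cover counting error at most. Amplified reads need not be independent molecules, so the intervals can be too narrow even for that. In bulk tissue, fewer cells of a type and less RNA per cell cannot be told apart.

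The split in skeletal muscle RNA ran through both genotypes. In the 6 libraries low in muscle markers, Sgk1 was 26.3 and 21.2 in the 2 mutants, against 6.81 to 16.4 in the 4 wild-type libraries. In the other 10 it was 18.9 to 27.4 in 6 mutants and 10.4 to 19.4 in 4 wild-type libraries. The mean difference was log2 0.96 in the 6 libraries alone, where each mutant valve has 1 library, and 0.65 in the other 10. With the muscle marker mean as a covariate it was 0.77. In the mutant minus wild-type mean, 15 of 17 skeletal muscle genes were above 0, as were 7 of 8 neuronal and Schwann cell genes and 1 of 10 erythroid genes. The mean log2 level of the erythroid genes was 5.96 to 6.77 in mutant aortic and 5.14 to 9.10 in wild-type aortic libraries, and 5.51 to 6.99 in mutant pulmonary and 5.70 to 9.70 in wild-type pulmonary libraries. For the neuronal and Schwann cell genes the mean log2 level was 1.96 to 3.31 in mutant aortic and 1.81 to 3.81 in wild-type aortic libraries, and 2.15 to 4.35 in mutant pulmonary and 1.62 to 3.04 in wild-type pulmonary libraries. Within a valve, 7 of 9 endothelial genes were above 0 in the aortic (median log2 difference 0.54) and 4 of 9 in the pulmonary comparison. Of the cardiomyocyte genes 1 of 12 was above 0 in the aortic (median -0.31) and 8 of 12 in the pulmonary comparison (median 0.42). Fitted together with the mean of the cardiomyocyte genes, the Sgk1 difference was 0.78 in each valve. The libraries with Tbx20 of at most 123 all lay among the 10 higher in muscle markers. They made up a larger share of the 4 wild-type than of the 6 mutant libraries there. The part of the Tbx20 level and of the erythroid, neuronal and endothelial lists in the Sgk1 difference was not tested.

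**Figure D1:**
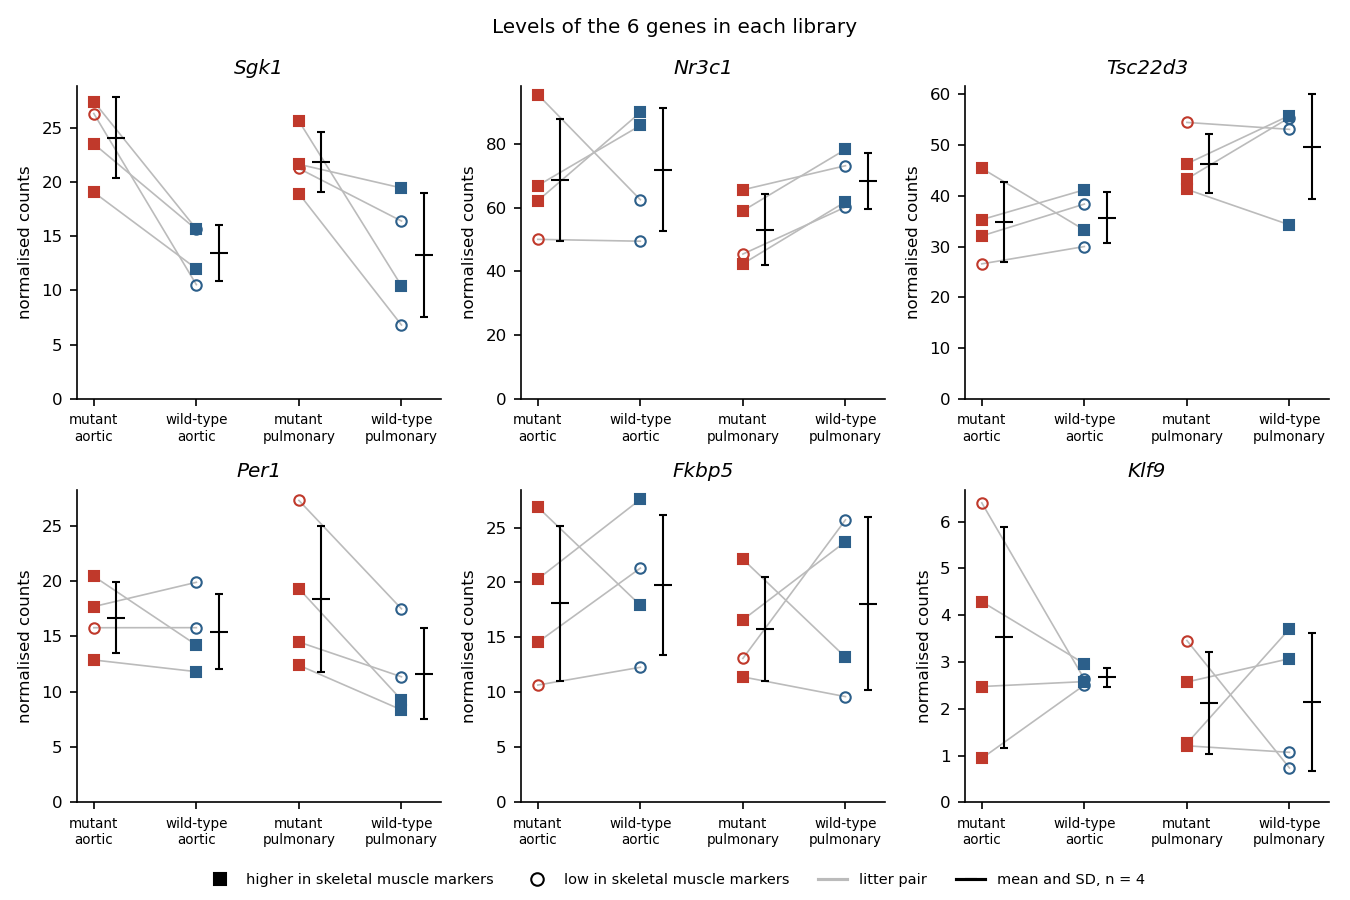
Normalised counts (vertical axes, linear, from 0) of the 6 genes in 16 libraries, by group. Red marks are mutant and blue marks wild-type libraries, open circles are the libraries low in skeletal muscle markers, grey lines join litter pairs, and black bars give the mean and SD of 4 libraries. The lines slope down from mutant to wild type in all 8 pairs for Sgk1 and in no other panel.

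For the glucocorticoid receptor gene the mutant means lay below the wild-type means in both valves, and no difference passed the test. Nr3c1 (ENSMUSG00000024431) was 67.0, 95.5, 62.2 and 50.1 in mutant aortic libraries, against 85.8, 62.5, 89.9 and 49.5 in wild-type aortic libraries. The aortic groups covered nearly the same range. In the pulmonary valve it was 59.0, 65.6, 42.4 and 45.5 in mutants, against 78.3, 73.2, 61.9 and 60.2 in wild type. The mutant had the lower pulmonary value in 4 of 4 pairs, though mutant library 2 (65.6) was above wild-type libraries 3 and 4. The log2 difference was -0.37 (SE 0.24) in the pulmonary valve and -0.06 (SE 0.24) in the aortic valve, and neither passed (limma adjusted p = 1.00 each). The difference between the valves was log2 -0.31 (95% interval -1.03 to 0.41).

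Tsc22d3, often taken as the most direct read-out of the receptor, had nearly equal means in the genotypes. It was 45.4, 32.1, 35.3 and 26.6 in mutant aortic libraries, against 33.3, 38.4, 41.2 and 30.0 in wild-type aortic libraries. Its pulmonary values were 41.3, 43.3, 46.3 and 54.5 in mutants, against 34.3, 55.4, 55.8 and 53.1 in wild type. The mutant was higher in 3 of 8 pairs. The mean over both valves differed by log2 -0.06, with a 95% interval from -0.40 to 0.27 (limma adjusted p = 1.00).

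Per1 values leaned the same way as those of Sgk1 in the pulmonary valve. It was 12.4, 14.49, 19.3 and 27.3 in mutant pulmonary libraries, against 8.36, 11.4, 9.27 and 17.5 in wild-type pulmonary libraries. The mutant was higher in 4 of 4 pulmonary pairs, while the groups overlapped, since wild-type library 4 (17.5) was above mutant libraries 1 and 2. In the aortic valve Per1 was 12.9, 17.7, 20.4 and 15.8 in mutants, against 11.8, 19.9, 14.2 and 15.8 in wild type, with 2 of 4 pairs higher in the mutant. The log2 difference was 0.61 (SE 0.31; limma unadjusted p = 0.0681) in the pulmonary and 0.11 (SE 0.31) in the aortic valve. Neither passed over all genes (limma adjusted p = 1.00 each), and the difference between the valves was 0.50 (95% interval -0.44 to 1.43).

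Fkbp5 varied widely within every group. It was 26.9, 14.6, 20.3 and 10.7 in mutant aortic libraries, against 17.9, 21.3, 27.6 and 12.3 in wild-type aortic libraries. Pulmonary values were 16.6, 11.4, 22.1 and 13.1 in mutants, against 23.7, 9.62, 13.2 and 25.7 in wild type. The mutant was higher in 3 of 8 pairs. The mean difference was log2 -0.13 (95% interval -0.69 to 0.43; limma adjusted p = 1.00).

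Klf9 was near the limit of detection. It was 2.48, 0.940, 4.29 and 6.40 in mutant aortic libraries, against 2.58, 2.51, 2.96 and 2.63 in wild-type aortic libraries. In the pulmonary valve it was 2.57, 1.21, 1.26 and 3.46 in mutants, against 3.07, 1.07, 3.71 and 0.734 in wild type. These values rest on 6 to 45 reads per library, and the 6 reads of mutant aortic library 2 have an exact 95% Poisson interval from 0.345 to 2.05. The mean difference was log2 0.09 (95% interval -0.60 to 0.79; limma adjusted p = 1.00). The direction changed with the libraries used, at log2 1.14 in the 6 libraries low in muscle markers and -0.47 in the other 10.

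None of the 5 genes other than Sgk1 passed the threshold in the aortic valve, the pulmonary valve or the mean of both. The same held over the whole table, where limma called 0 of 13963 genes (0%) in each comparison and in the difference between valves (0%), with 196, 437, 389 and 264 genes at an unadjusted p under 0.05. None of the 5 was among these, and edgeR called 0 genes in each comparison, and DESeq2 2 in the pulmonary valve and 5 in the mean. With the litter pairs as a block, limma called 2 genes in the mean, neither of them among the 5. It called 2 genes in the aortic valve and 3 in the mean without wild-type aortic 4, and 2 in the mean without wild-type pulmonary 2. Jag1, the gene cut in the mutants, did not pass in the main fit either. Its log2 difference was -1.62 in the aortic valve, -1.74 in the pulmonary valve and -1.68 in the mean (limma adjusted p = 0.218 in the mean). A gene that did not pass is therefore not shown to be unchanged. In the aortic valve 1 of the 6 genes, Sgk1, had every mutant library above every wild-type library, as 0.759% of all tested genes did, and none had them all below (0.824% of all genes). In the pulmonary valve none of the 6 separated either way, against 0.938% of all genes above and 1.05% below. Sgk1 alone of the 6 was higher in the mutant of all 8 pairs, as 0.466% of all genes were, and none was lower in all 8 (0.387%). Nothing is read from these Sgk1 counts, since the gene was selected on them.

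**Figure D2:**
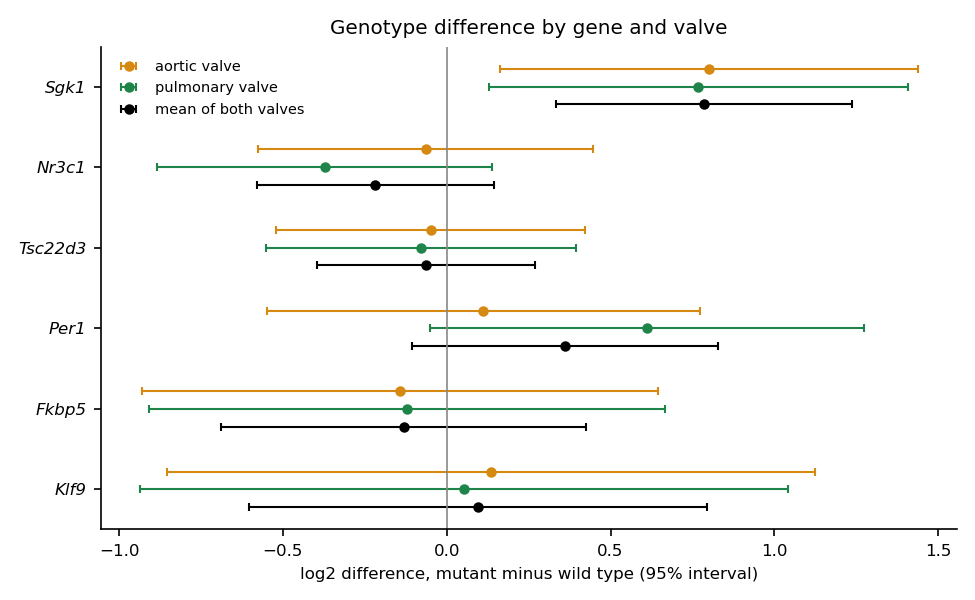
Log2 difference of mutant minus wild type (horizontal axis) with its 95% interval for each gene, in the aortic valve, the pulmonary valve and their mean. Sgk1 lies at 0.77 to 0.80 in the 3 comparisons, and Nr3c1, Tsc22d3 and Fkbp5 lie below 0 in all 3. Sgk1 was selected on this difference, so its intervals are a description and not a test against 0.

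Across the 16 libraries the level of none of the 5 genes followed Sgk1 beyond what permutation gave. Pearson's r with Sgk1 was 0.37 for Per1 (rho 0.36), 0.25 for Fkbp5 (rho 0.12), 0.10 for Klf9 (rho -0.03), -0.19 for Nr3c1 (rho -0.17) and -0.34 for Tsc22d3 (rho -0.29). The 2-sided permutation p was 0.16 for r and 0.17 for rho with Per1, the smallest of the 5, and 0.51 and 0.70 after Benjamini-Hochberg adjustment over 5 relations. Without the 2 libraries farthest from the Sgk1 median, wild-type pulmonary 2 and 3, r with Per1 was 0.11. It was 0.49 in the 10 libraries higher in muscle markers, and 0.51 over all 16 after the linear relation to the muscle marker mean was removed (permutation p = 0.043, adjusted over 5 relations 0.21). On Sgk1, mutant pulmonary 2 (18.9) and mutant aortic 3 (19.0) were the only mutant libraries below the highest wild-type library (19.4), so the relations were also taken within each genotype. Within the 8 mutant libraries r ran from -0.41 (Tsc22d3) to 0.08 (Nr3c1).

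The highest r within a genotype was that of Fkbp5 with Sgk1 in the 8 wild-type libraries. Wild-type pulmonary library 2 had the lowest level of both, at 6.81 for Sgk1 and 9.62 for Fkbp5, while wild-type aortic library 3 had the highest Fkbp5 (27.6) with 12.0 for Sgk1. Pearson's r was 0.81 (permutation p = 0.016, adjusted over 5 relations 0.078) and rho 0.71 (permutation p = 0.057, adjusted 0.28), so the relation did not pass the correction. Without the 2 wild-type libraries farthest from the median r was 0.63 (permutation p = 0.19, n = 6). In the same 6 libraries r with Sgk1 was 0.51 for Per1 (rho 0.71) and -0.66 for Klf9. For Klf9 rho was -0.94 (permutation p = 0.016, adjusted over 5 relations 0.081), which did not pass. In mutants r of Fkbp5 with Sgk1 was 0.03. Over deviations from the 4 group means r was 0.56 for Fkbp5 (permutation p = 0.023, adjusted 0.12), 0.02 for Per1 and -0.40 for Tsc22d3. Within a batch, r for Per1 was 0.12 over aortic and 0.47 over pulmonary libraries, and for Fkbp5 -0.19 and 0.57. In all, 60 such relations were computed, 5 in each of 12 sets of libraries, and libraries of the same litter are not independent. The permutations took deviations from group means, and values freed of the muscle relation, as exchangeable, so their p-values can be too small.

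**Figure D3:**
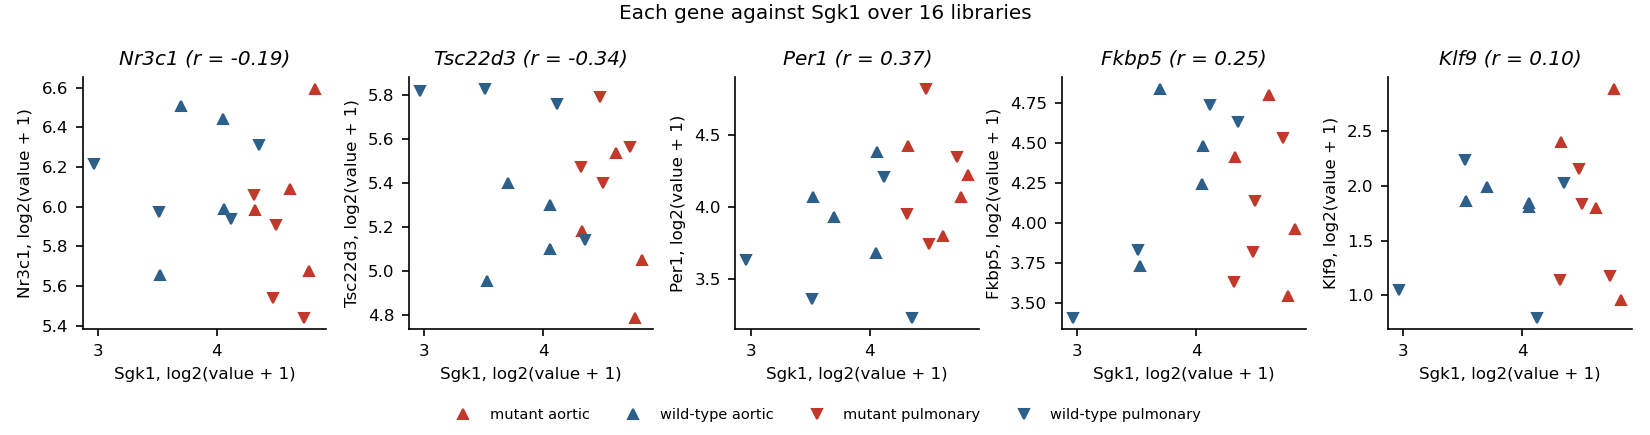
Level of each of the other 5 genes (vertical axes) against Sgk1 (horizontal axes), both as log2(value + 1), in 16 libraries. Upward triangles are aortic and downward triangles pulmonary, red mutant and blue wild type. Mutants lie to the right on the Sgk1 axis, and r runs from -0.34 (Tsc22d3) to 0.37 (Per1).

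The genes whose levels were most like Sgk1 were not among those 5. Of 9449 genes with a mean value of at least 10, Atxn7l1 had the highest r over the 16 libraries (0.87), followed by Phospho2 (0.85), Traf6 (0.79), Ap1s2 (0.78) and Arih1 (0.77), leaving out 1 predicted gene at the third rank. Per1 ranked 799, Fkbp5 1789, Nr3c1 7118 and Tsc22d3 8554 of 9449, and Klf9 was under the minimum. The 27 glucocorticoid-induced genes compared had a median r with Sgk1 of 0.091, against 0.0054 over all 9449 genes. Over deviations from the group means the medians were 0.14 and 0.0077. Atxn7l1 averaged 21.6 ± 1.33 in mutant against 12.4 ± 3.85 in wild-type aortic libraries, and 16.9 ± 2.97 in mutant against 13.3 ± 5.05 in wild-type pulmonary libraries (SD, n = 4 each). For Phospho2, r was 0.78 within mutants and 0.93 within wild type. For Traf6 it was 0.10 within mutants and 0.78 within wild type. For Atxn7l1 it was 0.48 within mutants and 0.82 within wild type. These r values are measures of likeness over 16 libraries that share litters and batches, and carry no test. Over all 16 libraries they also take in the genotype difference on which Sgk1 was selected, so genes with a like difference rank higher.

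A wider list of 42 glucocorticoid-induced genes had 39 in the table. Without Sgk1, 25 of 38 lay above 0 and 13 below for the mean of both valves, with a median log2 difference of 0.11, against 52.2% above 0 and a median of 0.01 over all tested genes. None passed the threshold, and none of the 38 was higher in the mutant of all 8 pairs, as 0.466% of all genes were. Cebpd, a transcription factor of the acute-phase response, had the smallest p (0.0396, unadjusted, limma) and averaged 4.34 ± 0.777 in mutant and 2.41 ± 0.912 in wild-type aortic valves, and 3.42 ± 0.711 in mutant and 2.28 ± 1.97 in wild-type pulmonary valves (limma adjusted p = 1.00), with the mutant higher in 7 of 8 pairs. Anxa1, an anti-inflammatory annexin, averaged 53.5 ± 42.8 in mutant and 27.5 ± 7.97 in wild-type aortic valves, with a wide spread in the mutants. Irs2, an adaptor of the insulin receptor, differed by log2 0.34 (SE 0.23), and Foxo3, a transcription factor that SGK kinases phosphorylate, by -0.28 (SE 0.18). The differences ran from -0.61 for the metallothionein gene Mt1 to 0.63 for the cell cycle inhibitor Cdkn1c, whose levels were very uneven (511 ± 332 in mutant and 646 ± 719 in wild-type aortic valves). Dusp1, a phosphatase gene with a classical steroid response, lay at -0.30 (SE 0.28).

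**Figure D4:**
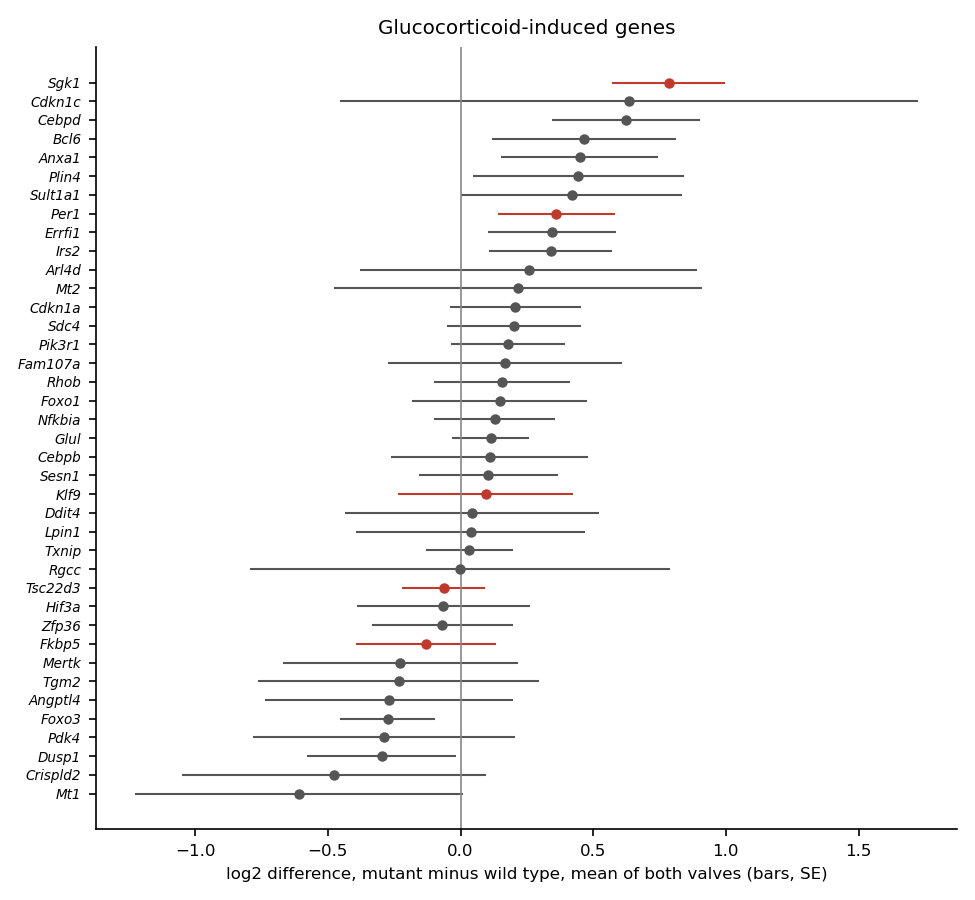
Log2 difference of mutant minus wild type, mean of both valves (horizontal axis, bars are SE), for the 39 glucocorticoid-induced genes tested, ordered by size. Red marks are Sgk1, Per1, Klf9, Tsc22d3 and Fkbp5, and Sgk1 is at the top at 0.78. Nothing is read from this rank, since Sgk1 was selected on its genotype difference.

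The receptor machinery, 19 of 22 listed genes in the table, was centred on 0. For the mean of both valves 10 lay above 0 and 9 below, with a median of 0.00, and none passed. Nr3c2, the mineralocorticoid receptor, which also binds glucocorticoids, averaged 4.55 ± 3.21 in mutant and 6.93 ± 3.27 in wild-type aortic valves and 6.21 ± 4.25 in mutant and 7.05 ± 3.18 in wild-type pulmonary valves. Med1, a mediator subunit, had the smallest p of the list (log2 0.24, SE 0.15; limma adjusted p = 1.00). The coactivator gene Ncoa1 differed by 0.15 (SE 0.23). Hsp90ab1, a gene of the Hsp90 chaperone, averaged 2050 ± 242 in mutant and 2100 ± 426 in wild-type aortic valves. Fkbp4, the co-chaperone that favours the receptor where Fkbp5 opposes it, averaged 180 ± 59.8 in mutant and 186 ± 82.1 in wild-type aortic valves. Hsp90ab1, Fkbp4, Mt1, Cdkn1c and Dusp1 were named after their values were seen.

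In the SGK kinase pathway, 24 of 31 listed genes were in the table, and 15 of the 23 other than Sgk1 lay above 0 for the mean of both valves, with a median of 0.06. Ndrg1, whose product is a standard substrate of SGK kinases, averaged 39.0 ± 17.0 in mutant and 22.1 ± 6.56 in wild-type aortic valves, and 34.3 ± 6.88 in mutant and 23.7 ± 7.60 in wild-type pulmonary valves. Its mutant value was higher in 6 of 8 pairs, and its difference of log2 0.64 (SE 0.24) did not pass (limma unadjusted p = 0.0179, adjusted p = 1.00). Nedd4l, a ubiquitin ligase that SGK1 phosphorylates, averaged 36.2 ± 14.3 in mutant and 22.2 ± 4.34 in wild-type aortic valves, and 40.0 ± 28.5 in mutant and 22.6 ± 3.91 in wild-type pulmonary valves. Its relative Nedd4 differed by log2 0.19 (SE 0.12) and the deubiquitinase gene Usp7 by -0.27 (SE 0.15), and none of these passed.

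Among 9 osmotic stress genes in the table, another programme that includes Sgk1 induction, 6 lay above 0 and 3 below in the mean, with a median of 0.06. In the aortic valve 6 of 9 lay above 0 and in the pulmonary valve 2 of 9, and none passed. The members with the smallest p were the glycine transporter gene Slc6a9 (log2 0.45, SE 0.40), the water channel gene Aqp1 (0.69, SE 0.64), the aldose reductase gene Akr1b3 (-0.15, SE 0.16) and the taurine transporter gene Slc6a6 (0.18, SE 0.28).

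Per kilobase of merged exons, the order of levels over the 16 libraries was Tsc22d3 (15.0 ± 3.43 normalised counts per kb), Nr3c1 (10.02 ± 2.39), Sgk1 (4.48 ± 1.51), Per1 (2.76 ± 0.854), Fkbp5 (2.74 ± 0.931) and Klf9 (0.583 ± 0.325; SD, n = 16). Tsc22d3 was above Nr3c1 in 14 of 16 libraries, Nr3c1 above Sgk1 in 16 of 16, Sgk1 above Per1 in 14 of 16 and Fkbp5 above Klf9 in 16 of 16. Per1 was above Fkbp5 in 9 of 16, so these neighbours did not differ beyond their spread. On the same scale the related kinase gene Sgk3 averaged 14.48, and the receptor gene Nr3c2 averaged 1.00. Between the valves, Tsc22d3 had higher means in pulmonary than in aortic libraries in both genotypes, at 46.4 ± 5.79 in mutant pulmonary against 34.9 ± 7.91 in mutant aortic libraries, and 49.7 ± 10.3 in wild-type pulmonary against 35.7 ± 5.02 in wild-type aortic libraries. This comparison was not tested and follows the library batches. Sgk1 means differed little between the valves, at 21.9 in pulmonary against 24.1 in aortic libraries of mutants, and at 13.3 in pulmonary against 13.5 in aortic libraries of wild type.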

How the data were processed

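RNA from laser-cut valves was purified on PicoPure columns, amplified with the Ovation V2 system and made into TruSeq libraries, per the labels' protocols. The submitters' processing notes name RSEM 1.2.3, cutadapt 1.6, FastQC, CASAVA 1.8.2 and the build GRCm38. The authors deposited a normalised signal per gene and library, with a scaling not given in the sources used here. All deposited values were whole multiples of 1 step per library at a tolerance of 0.05 read (100%), which gave the recovered reads. RSEM estimates counts and can split reads between similar genes. Ensembl IDs were paired with symbols through a reference table of gene names (13780 of 13964 matched), and exon lengths come from the GENCODE M21 basic annotation.

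The main test was limma 3.58.1 (R 4.3.3) on log2(value + 1) with a mean-variance trend, with a mean per group over all 16 libraries. A filter (value 1 or more, 4 or more libraries) left 13963 genes, with all 6 members among them, and the script was tested on simulated data. P-values are 2-sided and adjusted by Benjamini-Hochberg over all tested genes, with a threshold of 0.05. Libraries with a skeletal muscle marker mean under log2 3.5 were called low. Correlations were tested with 100000 permutations. Alternatives were edgeR 4.0.16 and DESeq2 1.42.0 on recovered reads, pseudocounts, filters, quantile scaling, library weights, marker covariates, subsets, left-out libraries and litter blocks. The labels give same-numbered libraries of a valve 1 litter, and their deviations from the group means correlated at -0.03 to 0.64 over all genes. The text names the 6 members, up to 4 genes of each pathway list with the smallest p in the mean, the 5 genes most like Sgk1 and Jag1, and 1 gene under this rule is not reported here. Members, lists and alternatives were chosen with earlier results of these data known.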

Additional observations from a re-analysis of the deposited data

Results flagged for a closer look

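Of the 24 sets of 4 libraries (6 genes in 4 groups), 1 held a library that stood apart by Dixon's test at the 95% level. Tsc22d3 was 34.3 in wild-type pulmonary library 1, against 53.1 to 55.8 in the other 3 libraries of that group. Chance sets apart about 1 group in 20. Without this library the Tsc22d3 difference in the pulmonary valve was log2 -0.24.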

How the results depend on the processing

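None of the 5 genes other than Sgk1 passed the threshold under any alternative run. Sgk1 stayed higher in mutants in both valves under all of them. Sgk1 was selected on this difference in the same libraries, so its steady direction is given as a description only. Its log2 difference ranged from 0.70 to 0.90 (aortic), 0.51 to 0.97 (pulmonary) and 0.66 to 0.89 (mean) when 1 library was left out, and from 0.69 to 0.98, 0.58 to 0.93 and 0.65 to 0.96 under the others. The count of genes past the threshold, 0 in each comparison, was 2 in the pulmonary valve and 5 in the mean with DESeq2. With the litter pairs as replicate block it was 2 in the mean, and the block changed no call of the 5 genes other than Sgk1. With the skeletal muscle covariate it was 2 in the mean. In the 10 libraries higher in muscle markers it was 3 (aortic), 2 (pulmonary) and 3 (mean), and in the 6 low ones 5, 6, 7 and, for the difference between valves, 1. In those 6 each mutant valve has 1 library, assumed to vary like the others. Leaving out 1 library gave 0 to 2 genes in the aortic valve and 0 to 3 in the mean, with 2 and 3 without wild-type aortic 4 and 2 in the mean without wild-type pulmonary 2.

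Directions of small differences changed as follows, and the cause was not tested. Nr3c1 was 0.059 (aortic) with library weights. In the 10 libraries Tsc22d3 was 0.0072 (aortic) and 0.00072 (mean), and Klf9 was -0.19 (aortic), -0.74 (pulmonary) and -0.47 (mean). In the 6 libraries Tsc22d3 was 0.0057 (pulmonary) and Per1 -0.16 (aortic). With quantile scaling Klf9 was -0.12 (pulmonary) and -0.048 (mean). Leaving out 1 library gave ranges in the aortic valve of -0.23 to 0.072 (Nr3c1), -0.18 to 0.068 (Tsc22d3), -0.00025 to 0.23 (Per1), -0.35 to 0.069 (Fkbp5) and -0.16 to 0.49 (Klf9). In the pulmonary valve they were -0.37 to 0.075 (Fkbp5) and -0.19 to 0.29 (Klf9), and in the mean -0.052 to 0.27 (Klf9). Klf9 has no value with a mean of at least 5 required. The r with Sgk1 over deviations from group means was 0.062 for Nr3c1 and -0.0095 for Klf9. Without the 2 libraries farthest from the Sgk1 median it was 0.057 for Tsc22d3, -0.16 for Fkbp5 and -0.035 for Klf9, and in the 10 libraries -0.62 for Klf9. Depth limits Klf9 most, at 6 to 45 reads per library.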
